A study of Mus musculus with 10 samples.

Results

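Endothelial cells line the blood vessels of the liver, and 37 genes that mark them were followed here in cultures of primary mouse hepatocytes. They were taken as a named list of liver sinusoidal and general vascular endothelial markers, with 1 array feature for each gene, chosen among features that carry a single gene symbol as the one with the highest mean over the 10 libraries. Of the 37 genes, 36 were measured (Clec14a was not analysed here) out of 16401 genes with such a feature. The list holds 11 sinusoidal markers, all measured, and 26 general vascular markers, of which 25 were measured. After the lowest 30 percent of all genes by mean level were left out, 32 members were among the 11480 genes tested, 9 of them sinusoidal and 23 vascular. Dnase1l3 and Gpr182 (sinusoidal) and Vwf and Ushbp1 (vascular) lay below that limit, a mean of 7.13 on the log2 intensity scale.

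The sinusoidal endothelium is the thin, perforated lining through which hepatocytes exchange material with blood. It is known as a scavenger tissue, equipped with receptors that take up hyaluronan, mannose-bearing proteins and small immune complexes. General endothelial genes, in contrast, serve every vessel: junction proteins such as VE-cadherin, the receptors for VEGF and angiopoietin, and transcription factors of the ETS and SOX families.

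Cells were primary hepatocytes of male C57BL6/J mice aged 10 weeks. All had been transduced for 72 hours with an adenovirus at 2 to 4 plaque-forming units per cell that carried a non-specific short hairpin RNA (shNS), a hairpin against Wdr5 (shWDR5) or a hairpin against Kat2b (shKAT2B). They were then given 100 nM glucagon or phosphate-buffered saline (PBS) for 90 minutes, and RNA of 3 dishes was pooled for each library. WDR5 is a subunit of histone methyltransferase complexes and KAT2B is a histone acetyltransferase, and the series title asks how losing each changes gene expression in hepatocytes. The 10 libraries carry a replicate letter: shNS cells under either treatment, and both knockdown arms under glucagon, each have an A and a B library, while shWDR5 PBS and shKAT2B PBS each have 1 library, lettered A. The labels give no separate animals or dates for the letters, so p-values reflect only the spread among libraries, which may be technical.

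Library medians of the intensity lay between 282.1 and 298.2, and the number of arrays limits the precision. Kat2b stood between 6.60 and 6.93 in the 3 shKAT2B libraries against 9.40 to 9.59 in the other 7, and Wdr5 between 8.19 and 8.40 in the 3 shWDR5 libraries against 9.98 to 10.07 in the other 7 (log2 intensity). Each target was thus lower in every library of its arm. Of 9 measured hepatocyte markers 8 passed the limit on low values, with albumin (Alb) between 13.37 and 13.84 and Cps1 between 6.76 and 8.26. Asgr1 (6.33 to 6.82) lay below the limit, and Serpina1a was not analysed here. The lone PBS libraries had the sign of the B libraries in the first principal component of the residuals (78 percent of their variance). Their scores were 0.0582 (shWDR5) and 0.139 (shKAT2B), against 0.23 to 0.417 in B and -0.431 to -0.22 in the other A libraries. Residuals cancel out within an arm, so each lone score is fixed by the glucagon libraries of its arm. It is therefore no independent placement. Among the endothelial markers, shWDR5 PBS A was nearer to shWDR5 glucagon B than to glucagon A for 28 of 36, against 67.5 percent of all genes tested. shKAT2B PBS A was nearer to shKAT2B glucagon B for 33 of 36, against 75.1 percent. Counts of calls in comparisons that use these libraries are therefore also given without them or with the letter in the fit.

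Promoters are shown first for a few members on which the results below turn. RefSeq promoters (build GRCm38.p6) were matched for 18 of the 37 genes, and Angpt2, Cdh5 and Pecam1, vascular genes described below, are not among them. The motif AGGAAG, the core bound by ETS factors such as the member Erg, was found on either strand in the 250 bases before a start for 13 of the 18 (72.2 percent), against 32.3 percent of 27025 genes in the same table. The longer ETS form CCGGAAG was in 0 of 18 (7.83 percent of genes), and it does not contain AGGAAG. The GATA motif AGATAA was in 1 (5.56 against 11.4 percent), the SOX motif ACAAAG in 4 (22.2 against 18.6 percent) and the cyclic AMP response motif TGACG in 4 (22.2 against 19.8 percent), each searched on both strands. These are matches of letters, with no measure of binding. Below are the 120 bases that end at the annotated start, 5′ to 3′ on the strand of the gene, with AGGAAG or its complement CTTCCT in capitals.
The first 4 are the sinusoidal genes that differed most between the letters and had an entry: Clec4g at chr8:3720652-3720771 (minus strand), Fcgr2b at chr1:170976072-170976191 (minus strand), Mrc1 at chr2:14229294-14229413 (plus strand) and Stab2 at chr10:87007943-87008062 (minus strand).
Clec4g: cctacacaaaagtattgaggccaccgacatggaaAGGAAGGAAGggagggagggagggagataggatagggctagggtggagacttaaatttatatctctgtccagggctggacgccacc
Fcgr2b: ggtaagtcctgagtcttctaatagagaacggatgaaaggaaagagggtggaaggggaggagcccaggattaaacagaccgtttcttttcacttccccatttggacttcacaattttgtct
Mrc1: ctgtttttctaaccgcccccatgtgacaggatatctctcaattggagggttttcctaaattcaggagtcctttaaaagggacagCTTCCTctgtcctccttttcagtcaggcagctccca
Stab2: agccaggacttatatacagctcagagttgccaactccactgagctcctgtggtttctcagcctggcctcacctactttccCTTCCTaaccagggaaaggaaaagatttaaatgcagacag
Flt4 is shown because it went the other way from the rest of the sinusoidal list, at chr11:49609559-49609678 (plus strand).
Flt4: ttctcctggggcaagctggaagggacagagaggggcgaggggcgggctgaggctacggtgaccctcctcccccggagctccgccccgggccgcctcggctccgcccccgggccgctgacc
Eng and Flt1 are shown because they were the members called in the shKAT2B arm, at chr2:32646475-32646594 (plus strand) and chr5:147726012-147726131 (minus strand).
Eng: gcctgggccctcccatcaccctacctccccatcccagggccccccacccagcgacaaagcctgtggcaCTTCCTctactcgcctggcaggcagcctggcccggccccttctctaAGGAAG
Flt1: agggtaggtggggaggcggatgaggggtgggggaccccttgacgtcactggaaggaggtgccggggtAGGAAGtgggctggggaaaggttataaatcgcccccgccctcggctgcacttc
In these 120 bases, capitals appear in Clec4g (overlapping matches), Mrc1, Stab2, Eng and Flt1, and none in Fcgr2b or Flt4. The sinusoidal genes higher in B thus differ in whether they hold the motif in this window.

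The endothelial markers differed most between the replicate letters. Over the 4 groups that have both, 23 of the 32 tested members were higher in B libraries and 1 was lower (limma, 8 libraries, adjusted p below 0.05). Of all genes tested, 15.7 percent were called higher and 35.5 percent lower in the same fit. The median difference B minus A was 0.38 on the log2 scale over the tested members and -0.07 over all genes. By list, 7 of 9 sinusoidal markers were higher and 1 lower with a median of 0.55, and 16 of 23 vascular markers were higher and 0 lower with a median of 0.36. Clec4g and Mrc1, both counted as higher, lay under the limit of 7.13 in every A library of these groups. Their means passed that limit through the B and lone PBS libraries. So did the mean of Sox17, also counted as higher, which lay under the limit in these A libraries except shKAT2B glucagon A (7.15). How far the list medians differ from each other was not tested. In bulk RNA, more cells of a type and more RNA per cell cannot be told apart.

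**Figure D1:**
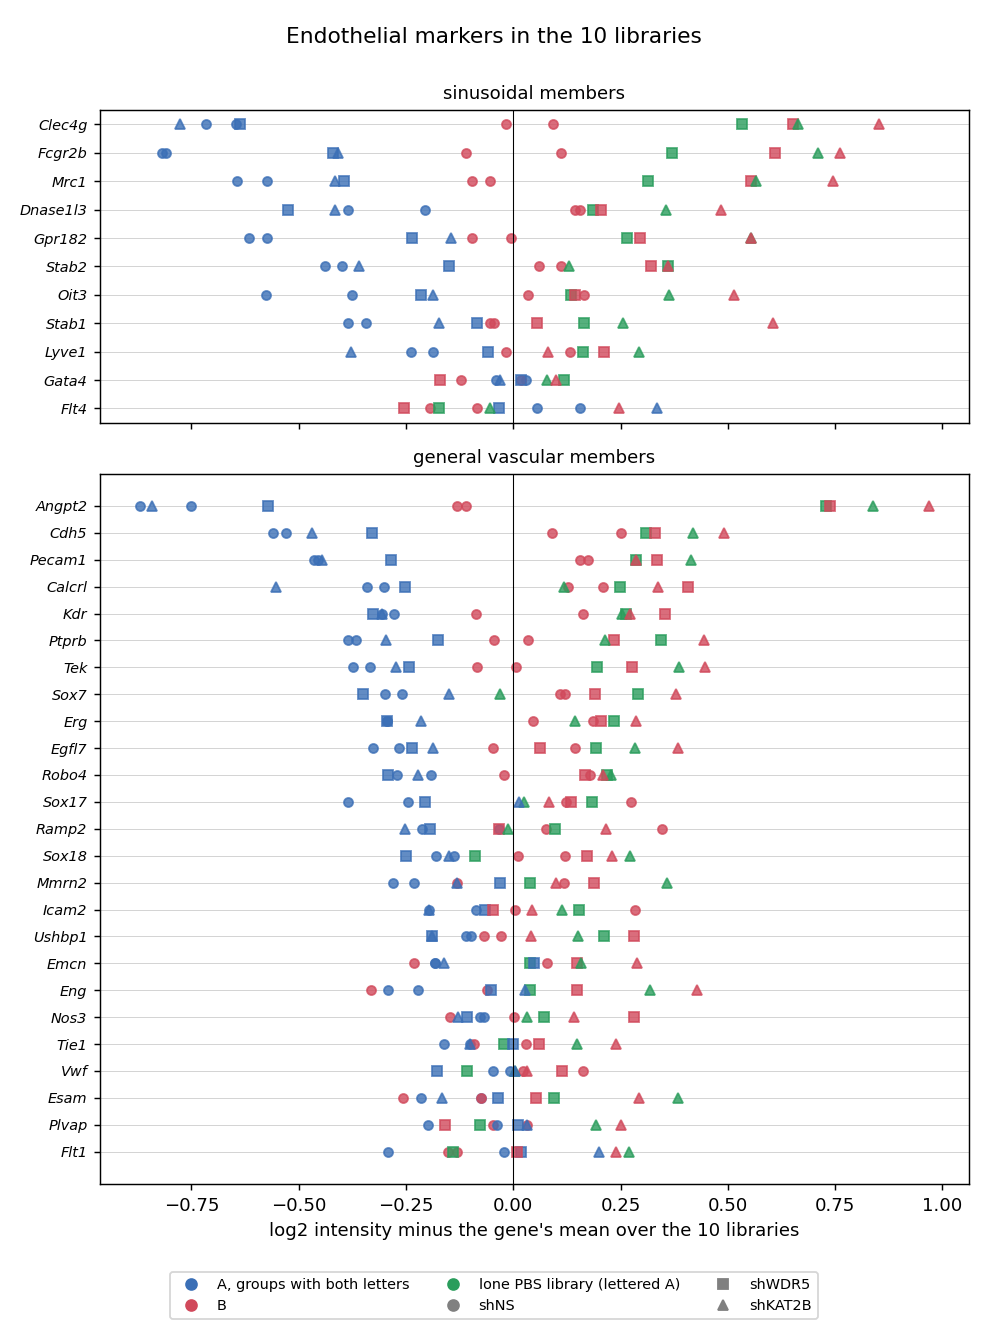
Level of each of the 36 measured endothelial markers in each library, as log2 intensity minus the mean of that gene over the 10 libraries, for 11 sinusoidal (top) and 25 general vascular genes (bottom); colour gives the replicate letter and marker shape the arm. A libraries of groups with both letters lie to the left and B libraries to the right for most genes, the lone PBS libraries mostly lie with B, and genes such as Flt4, Gata4, Flt1 and Plvap do not show this order.

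Clec4g, Fcgr2b and Mrc1 carried the widest sinusoidal differences. Clec4g, a sinusoidal C-type lectin (feature 10576774), stood in A libraries at 6.93 and 7.0 for shNS without and with glucagon, 7.01 for shWDR5 with glucagon and 6.87 for shKAT2B with glucagon. The matching B libraries, in the same order, stood at 7.74, 7.63, 8.30 and 8.50 (log2 intensity). The lone libraries stood at 8.18 (shWDR5 PBS) and 8.31 (shKAT2B PBS). No B library overlapped an A library of these groups, and each lone library was closer to the B than to the A library of its arm. The difference was 1.09 ± 0.13 (model standard error), or 2.13-fold, with an adjusted p of 7.66e-05 (limma). Fcgr2b, the inhibitory Fc receptor through which sinusoidal cells clear immune complexes (feature 10360028), stood in the same order at 8.03, 8.02, 8.42 and 8.43 in A and at 8.73, 8.95, 9.45 and 9.60 in B, and at 9.21 and 9.55 in the lone libraries. It was 1.95-fold higher in B (0.96 ± 0.07, adjusted p = 4.52e-06). Both genes show low values in all A libraries and, among B libraries, higher values in the knockdown arms than in shNS.

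Mrc1, the mannose receptor (feature 10469358), stood at 6.73, 6.66, 6.91 and 6.89 in A and at 7.25, 7.21, 7.86 and 8.05 in B, with 7.62 and 7.87 in the lone libraries. The letters did not overlap, and the difference was 0.79 ± 0.10 (1.73-fold, adjusted p = 0.000113). Stab2, the hyaluronan scavenger receptor (feature 10371506), ranged from 7.90 to 8.19 in A and from 8.40 to 8.70 in B, and was higher by 0.56 ± 0.07 (adjusted p = 5.61e-05). Its relative Stab1 was higher by 0.39 ± 0.09, the hyaluronan receptor Lyve1 by 0.32 ± 0.06 and Oit3, a secreted protein of the liver, by 0.55 ± 0.08. The 2 sinusoidal genes below the limit were also called when no gene was left out (14.0 percent of 16401 genes higher): the nuclease Dnase1l3 was higher by 0.63 ± 0.09 (adjusted p = 0.000219) and the chemokine-binding receptor Gpr182 by 0.58 ± 0.07 (adjusted p = 6.7e-05).

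Flt4 and Gata4 stood apart from the rest of the sinusoidal list. Flt4, the receptor for VEGF-C (feature 10375578), stood at 9.31, 9.21, 9.12 and 9.49 in A and at 9.07, 8.96, 8.90 and 9.40 in B, with 8.98 and 9.10 in the lone libraries. Each B library was below its own A library, although the letters overlapped across arms, and the difference was -0.20 ± 0.06 (adjusted p = 0.0109). This call is not stable: without either shNS PBS library its adjusted p was 0.0573, without either shNS glucagon library 0.0635, and under quantile normalization and median centring 0.122 and 0.126. Gata4, the transcription factor that directs sinusoidal fate and is also expressed by hepatocytes, ranged only from 9.07 to 9.36 over all 10 libraries, with a difference of -0.04 ± 0.06 (adjusted p = 0.64). It had the smallest range of levels among the 36 measured members, 0.29 on the log2 scale.

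Among general vascular genes, the angiopoietin Angpt2 differed most. Angpt2, a ligand of the Tie2 receptor released by endothelial cells (feature 10577315), stood at 8.53, 8.41, 8.71 and 8.44 in A and at 9.15, 9.17, 10.02 and 10.25 in B, with 10.01 and 10.12 in the lone libraries. A libraries were alike in all arms, whereas B libraries were about 9.2 in shNS and about 10.0 or above in both knockdown arms. The difference between letters was 1.12 ± 0.15, or 2.18-fold (adjusted p = 0.000127). Cdh5, VE-cadherin of the endothelial junction (feature 10574438), stood at 10.09, 10.12, 10.32 and 10.18 in A and at 10.74, 10.90, 10.98 and 11.14 in B, with 10.96 and 11.07 in the lone libraries. It was 1.70-fold higher in B (0.76 ± 0.06, adjusted p = 3.85e-06), and its letters did not overlap. The junction and adhesion molecule Pecam1 (feature 10392221) ranged from 8.07 to 8.25 in A and from 8.69 to 8.87 in B, higher by 0.66 ± 0.06 (adjusted p = 9.36e-06).

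Receptors and transcription factors of the vascular list followed at lower size. The VEGF receptor Kdr was higher in B by 0.48 ± 0.08, Tek (Tie2) by 0.47 ± 0.08 and Ptprb, the phosphatase that acts on Tie2 and VE-cadherin, by 0.47 ± 0.08. Calcrl and Ramp2, which together form an adrenomedullin receptor, were higher by 0.64 ± 0.08 and 0.32 ± 0.07. The ETS factor Erg was higher by 0.45 ± 0.07, and all 3 members of the SOXF family were called: Sox7 at 0.46 ± 0.07, Sox17 at 0.36 ± 0.09 and Sox18 at 0.31 ± 0.07. Sox17 had a mean level of 7.14, just above the limit of 7.13. Its A libraries of groups with both letters stood at 6.75, 6.89, 6.93 and 7.15. Its mean thus passed the limit, and the gene was tested, only through the B and lone PBS libraries. Egfl7, a secreted factor of endothelium, was higher by 0.39 ± 0.07, the guidance receptor Robo4 by 0.38 ± 0.07, the matrix protein Mmrn2 by 0.24 ± 0.07 and the adhesion molecule Icam2 by 0.21 ± 0.07. Adjusted p for Icam2 was 0.0369, and it rose to between 0.0791 and 0.189 when any library of shNS PBS, shNS glucagon or shKAT2B glucagon was left out. Mmrn2 (adjusted p = 0.0135) was lost without either shNS glucagon library (0.0942). When all 10 libraries were fitted by letter, which counts the lone PBS libraries as A, 18 of 32 members were higher and 0 lower, against 9.61 and 20.7 percent of all genes. The calls of Sox17 (adjusted p = 0.0539), Ramp2 (0.0806), Lyve1 (0.1), Mmrn2 (0.181), Flt4 (0.224) and Icam2 (0.303) were lost in that fit.

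The vascular genes that did not pass were Eng, a coreceptor for BMP ligands (0.18 ± 0.08), Emcn, an endothelial sialomucin (0.19 ± 0.07, adjusted p = 0.0503), Nos3, the endothelial nitric oxide synthase (0.16 ± 0.08), Tie1 (0.15 ± 0.07), Esam (0.13 ± 0.08), Plvap, the protein of fenestral diaphragms (0.07 ± 0.08), and Flt1, the VEGF receptor that also acts as a decoy (0.01 ± 0.07). With no gene left out, Ushbp1 (0.20 ± 0.08, adjusted p = 0.0748) and Vwf (0.14 ± 0.07, adjusted p = 0.149) did not pass either. Counting libraries instead of fitting them, B was above A in all 4 groups for 28 of 36 measured members (9 of 11 sinusoidal and 19 of 25 vascular) and below in all 4 for Flt4, against 18.9 percent above among all genes tested. Every B library exceeded every A library of these groups for 25 of 36 members, 9 sinusoidal and 16 vascular, against 6.87 percent of genes tested.

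**Figure D2:**
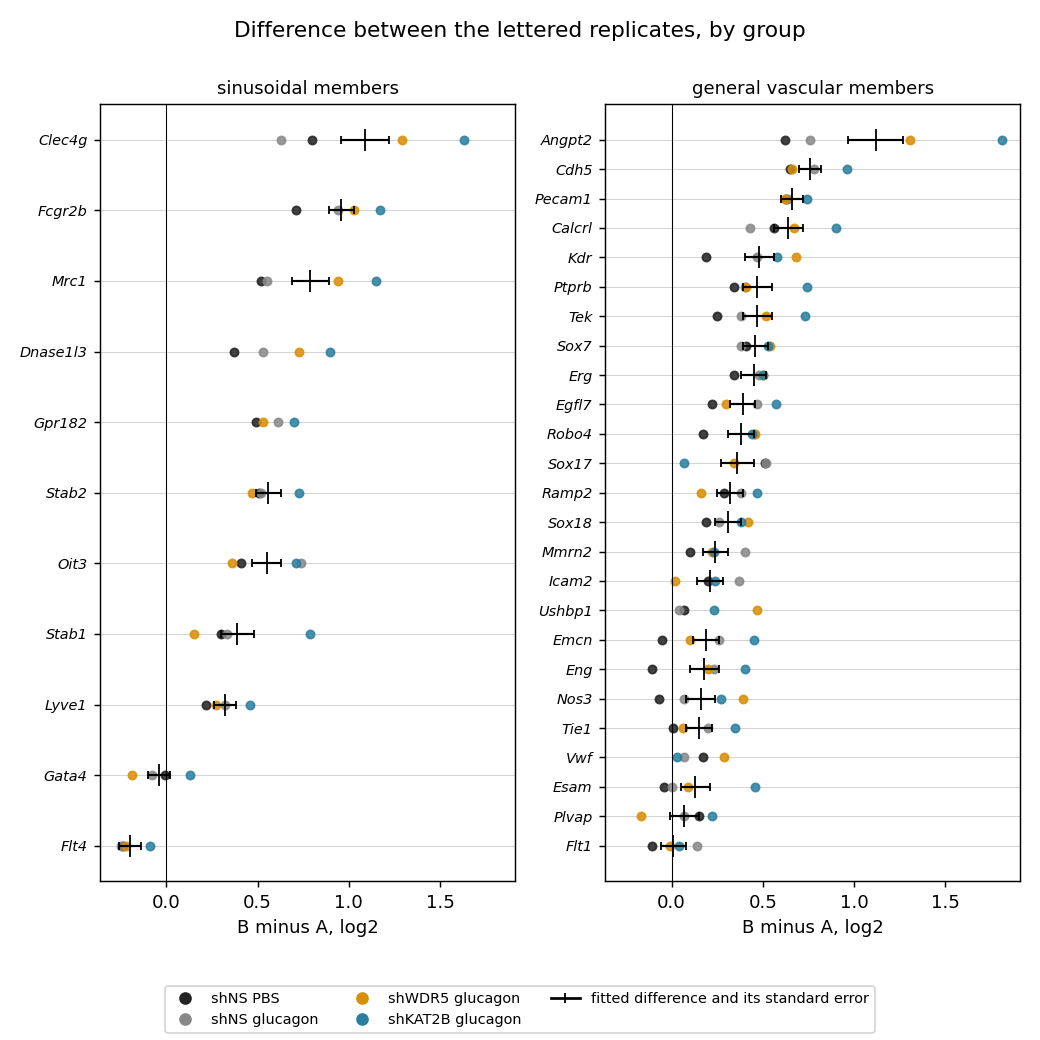
Difference B minus A on the log2 scale for each measured marker, with a point for each of the 4 groups that have both letters and, for the 32 tested genes, a black tick and bar for the fitted difference and its standard error. Clec4g and Angpt2 lie farthest to the right, at 1.09 and 1.12, with their shKAT2B pair at 1.63 and 1.81, while Flt4 lies left of zero in every group.

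Scaling bears on how the rest of the array moved. In the deposited scale 30.6 percent of all letter calls were higher in B, against 45.8 percent after quantile normalization and 59.4 percent after median centring, with medians over all genes of -0.07, -0.01 and 0.03. The endothelial count went from 23 higher and 1 lower to 25 higher and 0 lower after quantile normalization (21.0 and 24.8 percent of all genes) and to 28 higher and 0 lower after median centring (28.4 and 19.4 percent).

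For a few genes the gap between letters was wider in the knockdown arms. The pair difference of Angpt2 was 0.62 in shNS PBS and 0.76 in shNS glucagon, but 1.31 in shWDR5 glucagon and 1.81 in shKAT2B glucagon. For Clec4g the same pairs gave 0.80, 0.63, 1.29 and 1.63. The letter difference in the knockdown arms minus that in shNS was 0.87 ± 0.16 for Angpt2 (adjusted p = 0.436 by limma), 0.75 ± 0.16 for Clec4g (adjusted p = 0.634) and 0.52 ± 0.14 for Mrc1 (adjusted p = 0.815). This test was added after the values were seen, and 0 of 11480 genes passed it, with 487 at an unadjusted p under 0.05. The difference between arms is therefore given as values that did not pass.

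Markers of other liver cells moved with the letters too. All 13 tested markers of Kupffer cells and leukocytes were higher in B, with a median of 0.57, among them the macrophage genes Adgre1 at 1.29 ± 0.07, Fcer1g at 1.32 ± 0.06 and Clec4f, which is specific to Kupffer cells, at 0.33 ± 0.07. Timd4 and Marco were below the limit and Cd163 was not analysed here. Summed intensity of the 15 measured macrophage and leukocyte markers ranged from 6257 to 8055 in A, from 10039 to 14550 in B and from 12175 to 13628 in the lone libraries. The summed intensity of the 36 endothelial markers ranged from 9786 to 10708 in A, from 11867 to 15991 in B and from 14035 to 15152 in the lone libraries. Neither sum overlapped between A and B. Of 10 stellate cell and fibroblast markers, 7 were lower in B and 0 higher (median -0.38), and sums of 8728 to 9181 in A and 5984 to 6859 in B. Of 8 hepatocyte markers 4 were higher and 1 lower (median 0.15), and 3 of 3 cholangiocyte markers were lower. In the same fit 15.7 percent of all genes were called higher and 35.5 percent lower, so lower calls were common. Of the erythroid list only Alas2 was measured, and it was below the limit. The part of these other cells in the endothelial difference was not tested.

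Some members are also expressed by macrophages or other leukocytes. Of the 8 such members that were tested, 6 were higher in B, where 15.7 percent of all genes were higher and 35.5 percent lower. Without them, 3 of 5 sinusoidal markers were higher and 1 lower with a median of 0.55, and 14 of 19 vascular markers were higher and 0 lower with a median of 0.38. Cdh5, Erg, Clec4g, Stab2 and Angpt2 are among those kept.

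**Figure D3:**
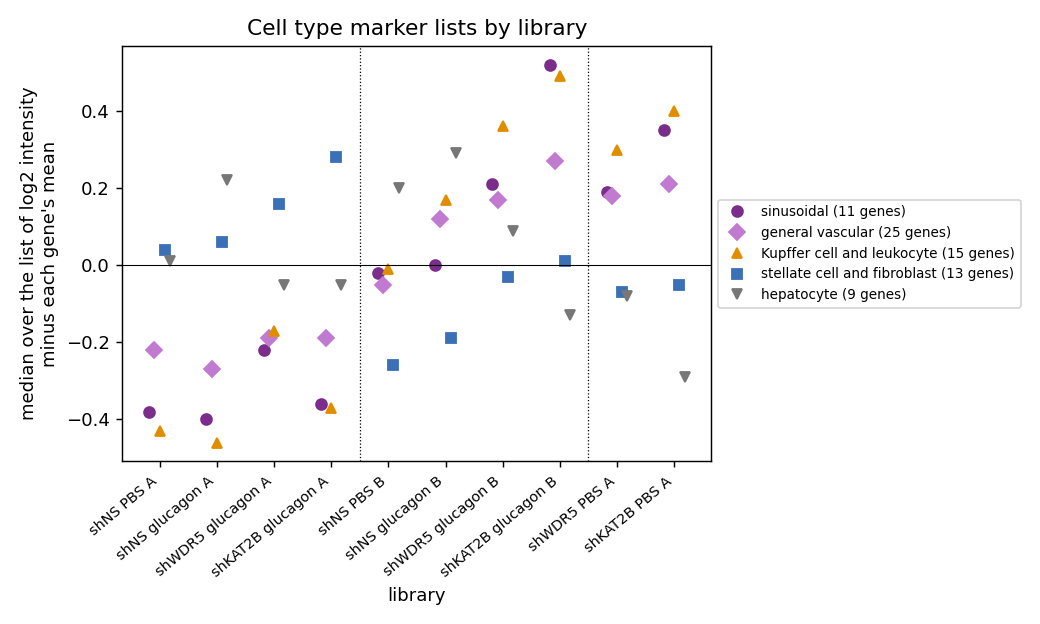
Median over each marker list of log2 intensity minus the gene's mean, for each library, with A libraries left of the first dotted line, B libraries between the lines and the lone PBS libraries at the right. Sinusoidal markers run from -0.40 to -0.22 in A and from -0.02 to 0.52 in B, the Kupffer cell and leukocyte list runs from -0.46 to -0.17 and from -0.01 to 0.49, and the stellate cell list lies higher in A.

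WDR5 depletion left no endothelial marker called when the letters were not matched. Of 32 tested members 0 passed and 1, Eng, had an unadjusted p under 0.05 (limma, additive in arm and treatment, 3 against 4 libraries), where 4.69 percent of all genes tested were called higher and 6.17 percent lower. The median difference from shNS was 0.27 for sinusoidal and 0.15 for vascular members, against -0.01 for all genes, and 28 of 32 members lay above zero. Without members that leukocytes also express, the medians were 0.23 and 0.15. Over the fewer members kept with the lowest 50 percent of genes left out, they were 0.12 and 0.23. The highest values were Angpt2 at 0.83 ± 0.46, Fcgr2b at 0.63 ± 0.37 and Clec4g at 0.56 ± 0.44, each with a standard error of 0.37 or more. The lowest were Flt4 at -0.15 ± 0.12, Ramp2 at -0.09 ± 0.15 and Plvap at -0.02 ± 0.09. Every shWDR5 library exceeded every shNS library for Eng and the junction molecule Esam, 2 of 36 measured members, against 11.8 percent of genes.

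The WDR5 values depended on how the letters were matched. Against the shNS glucagon library of the same letter, the median over 36 measured members was 0.07 for A and 0.08 for B. The lone PBS library was 0.44 above shNS PBS A and 0.20 above shNS PBS B. With the replicate letter as a block over the 8 libraries that have both letters, Fcgr2b was higher by 0.45 ± 0.10 (adjusted p = 0.00947) and Mrc1 by 0.45 ± 0.15 (adjusted p = 0.0461), 2 of 32 members against 11.3 percent of genes called higher. All shWDR5 libraries in that fit are glucagon libraries. Fcgr2b and Mrc1 were higher in shWDR5 than in shNS for each letter under glucagon, Fcgr2b by 0.41 (A) and 0.50 (B) and Mrc1 by 0.25 and 0.65. Both are among the members that macrophages or other leukocytes also express. The median over the 32 tested members was 0.13 in that fit, against 0.20 without a block. Over 10 libraries, a block by letter, which counts the lone libraries as A, gave 7 calls (11.0 percent of genes) and a median of 0.24. There Angpt2 was higher by 1.04 (adjusted p = 0.021), Fcgr2b by 0.81 (0.0146) and Clec4g by 0.76 (0.0448), each above its value without a block. A term that counts them with the B libraries, and that was read from these same libraries, gave 6 calls (18.8 percent): Angpt2, Eng, Fcgr2b, Mrc1, Ptprb and Stab2. Kupffer cell and leukocyte markers stood at a median of 0.35 in the WDR5 comparison without a block, with 0 of 13 called, and stellate cell and fibroblast markers at 0.07 with 0 of 10 called. Of 3 cholangiocyte markers 2 were lower, the keratins Krt19 (-0.80 ± 0.21) and Krt7 (-0.46 ± 0.11), with a median of -0.46. Of 8 hepatocyte markers 1, Alb, was lower (-0.30 ± 0.07), with a median of -0.11 and 4 at an unadjusted p under 0.05. In that fit 6.17 percent of all genes were called lower. The part of these cells in the endothelial values was not tested.

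In the shKAT2B arm 2 of 32 tested endothelial markers were called higher, both vascular receptors, where 6.66 percent of all genes were called higher. Flt1 (feature 10535807) stood at 7.22 and 7.11 in shNS PBS A and B and at 6.95 and 7.09 in shNS glucagon, and at 7.51 in shKAT2B PBS and 7.44 and 7.48 in shKAT2B glucagon. It was 1.31-fold higher than in shNS (0.39 ± 0.08, adjusted p = 0.0125, limma). Eng (feature 10471486) stood at 9.0 and 8.89 in shNS PBS and at 8.93 and 9.16 in shNS glucagon, and at 9.54 in shKAT2B PBS and 9.25 and 9.65 in shKAT2B glucagon, 1.40-fold higher (0.48 ± 0.11, adjusted p = 0.0204). For both genes all 3 shKAT2B libraries lay above all 4 shNS libraries. These 2 were the only such cases among 36 measured members, against 13.2 percent of genes. The 2 calls among 32 tested members stand against 6.66 percent of all genes called higher and 8.95 percent lower, so the share is close to that of the array. Both genes are also expressed by some leukocytes.

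The remaining sinusoidal and vascular genes were higher at the median but did not pass. The median difference from shNS was 0.44 for sinusoidal members, 0.21 for vascular members and 0.01 for all genes, with 30 of 32 members above zero. Without members that leukocytes also express, the sinusoidal and vascular medians were 0.23 and 0.21. With the lowest 50 percent of genes left out they were 0.14 and 0.35, so the order of the lists depended on the genes kept. That limit keeps fewer members, those with the highest mean levels. In the sinusoidal list these are led by Lyve1 (mean log2 intensity 9.35), Gata4 (9.24) and Flt4 (9.16). Gata4 and Flt4 are the genes that stood apart from the rest of that list between the letters. Angpt2 was at 0.86 ± 0.46, Fcgr2b at 0.80 ± 0.37 and Mrc1 at 0.67 ± 0.31, while Ramp2 (-0.07 ± 0.15), Icam2 (-0.01 ± 0.13) and Calcrl (0.07 ± 0.25) were lowest. The calls also depended on single libraries. Flt1 lost its call without shKAT2B PBS A (adjusted p = 0.0892) or shKAT2B glucagon B (0.0514). Eng lost its call without those libraries (0.152 and 0.0844), shNS PBS B (0.0546) or shNS glucagon A (0.0729), and neither passed without both lone PBS libraries and no block (0.0988 and 0.308). Without shKAT2B glucagon A, 9 of 32 members were called, where 898 of 11480 genes were called higher and 1224 lower.

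With letters matched, more sinusoidal genes passed in the KAT2B arm. With the letter as a block over 8 libraries, 7 of 32 members were higher, against 13.5 percent of genes: Fcgr2b at 0.53 ± 0.10 (adjusted p = 0.00329), Mrc1 at 0.53 ± 0.15, Flt1 at 0.44 ± 0.10 (adjusted p = 0.00754), Stab1 at 0.44 ± 0.13, Eng at 0.40 ± 0.11 (adjusted p = 0.016), Oit3 at 0.37 ± 0.11 and Flt4 at 0.36 ± 0.08 (adjusted p = 0.00597). Of these 7, 5 are sinusoidal and 2 vascular. All shKAT2B libraries in that fit are glucagon libraries, so it does not cover PBS. For Flt4 shKAT2B PBS A differed by -0.21 from shNS PBS A and by 0.03 from shNS PBS B. Under glucagon the Flt4 difference was 0.28 (A) and 0.44 (B). The other genes called were above both shNS PBS libraries in shKAT2B PBS A. Fcgr2b, Mrc1, Stab1, Flt1 and Eng are among the members that macrophages or other leukocytes also express, and only Oit3 and Flt4 are not. The block by letter over 10 libraries gave 12 calls (12.6 percent of genes) and the term that counts the lone libraries with B gave 14 (21.5 percent). Flt1, Eng, Fcgr2b, Mrc1, Oit3 and Stab1 passed in all 3 of these fits, which are refits of the same libraries and so no independent support. By library, the sinusoidal median over shNS of the same letter under glucagon was 0.21 for A and 0.44 for B, and the vascular median was 0.05 and 0.21. In the same arm, without a block, the Kupffer cell and leukocyte list stood at a median of 0.45 with 0 of 13 called. Of 8 hepatocyte markers 4 were lower, with a median of -0.54, and 1 of 3 cholangiocyte markers was lower, with a median of -0.33. In that fit 6.66 percent of all genes were called higher and 8.95 percent lower. The part of these cells in the endothelial values was not tested.

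**Figure D4:**
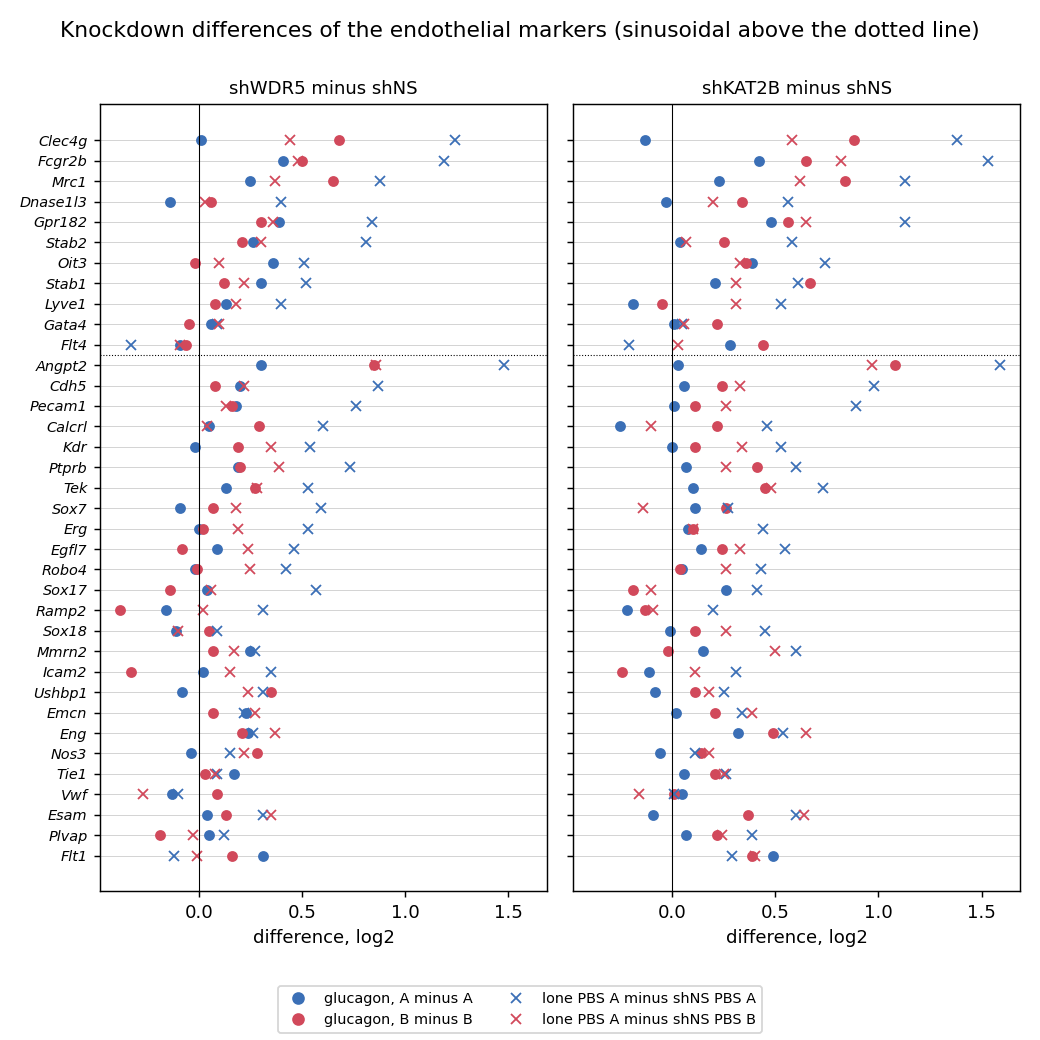
Difference from shNS on the log2 scale for each measured marker in shWDR5 (left) and shKAT2B (right), with circles for glucagon libraries of the same letter and crosses for the lone PBS library against each shNS PBS library. For most genes the cross against shNS PBS A lies farthest right, as for Angpt2 at 1.48 and 1.59, and Flt1 and Eng lie right of zero at every point in the shKAT2B arm.

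The knockdown arms share the shNS libraries, so they were set against each other directly. In shKAT2B minus shWDR5 0 of 32 members passed, where 11.2 percent of genes were called higher and 11.5 percent lower, and 3 members had an unadjusted p under 0.05. Sinusoidal and vascular medians were 0.14 and 0.03, and that of all genes 0.02. With the letter as a block over 8 libraries (20.5 percent of genes higher, 18.7 percent lower), Flt4 was higher in shKAT2B by 0.43 ± 0.08 (adjusted p = 0.00116) and Lyve1 differed by -0.22 ± 0.08 (adjusted p = 0.0477). That fit compares the knockdown arms under glucagon only. Flt1, at 0.27 ± 0.09, had an adjusted p of 0.0503 without a block and 0.034 with the letter block over 10 libraries.

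Glucagon changed no endothelial marker at the threshold. Over the arms 0 of 32 members were called and 0 had an unadjusted p under 0.05, where 0.923 percent of genes tested (106) were called. Sinusoidal and vascular medians were -0.11 and -0.05. Angpt2 at -0.43 ± 0.39, Clec4g at -0.34 ± 0.37 and Pecam1 at -0.21 ± 0.22 were lowest, and Flt4 at 0.06 ± 0.10, Emcn at 0.06 ± 0.10 and Plvap at 0.04 ± 0.07 were highest. With the letter as a block over 10 libraries 0 members were called but 9 had an unadjusted p under 0.05, and the values were larger: Angpt2 at -0.70 ± 0.24 (adjusted p = 0.147), Clec4g at -0.60 ± 0.22 (0.154), Mrc1 at -0.40 ± 0.14 (0.153) and Pecam1 at -0.37 ± 0.13 (0.148). With the block over the 8 libraries that have both letters 0 were called, 1 had an unadjusted p under 0.05, and the median over the 32 members was 0.06, against -0.18 with the block over 10. In shNS cells alone, which have both letters under both treatments, 0 members were called (0.192 percent of genes), 0 had an unadjusted p under 0.05, and the medians were -0.02 and 0.07.

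In the knockdown arms the glucagon value depended on which library was set against the lone PBS library. For shWDR5 the sinusoidal median was -0.50 with glucagon A and 0.02 with glucagon B, and the vascular median -0.39 and 0.05. For shKAT2B the sinusoidal median was -0.67 and 0.16, and the vascular median -0.36 and 0.06. In shNS, with the letter matched, sinusoidal medians were -0.04 (A) and -0.01 (B) and vascular medians 0.00 and 0.14. The interaction of glucagon with either knockdown was called for 0 members and 0 genes, with 20 and 36 genes at an unadjusted p under 0.05. With the letter as a block over 10 libraries, 5 members had a lower glucagon response in shWDR5 (Cdh5, Fcgr2b, Pecam1, Sox7 and Stab2), and in shKAT2B 7 were lower and Flt4 was higher. The background in these fits was 2.13 percent of genes lower for shWDR5, and 4.15 percent lower and 7.91 percent higher for shKAT2B. With the lone libraries counted with B, 0 members were called in either.

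Genes that act around the endothelium were followed in lists of VEGF and angiopoietin ligands and coreceptors, Notch genes, BMP receptors and angiocrine ligands, endothelial transcription factors, genes of flow, clotting and activation, and other endothelial surface genes. Of 63 tested genes in these lists, 23 were higher and 16 lower in B than in A, where 15.7 percent of all genes were higher and 35.5 percent lower. The highest were the surface genes Adgrf5 (0.73 ± 0.06), Cd93 (0.73 ± 0.06), Adgrl4 (0.60 ± 0.07) and S1pr1, the sphingosine phosphate receptor (0.60 ± 0.06), with the ligands Bmp2 (0.64 ± 0.07) and Apln (0.63 ± 0.05). By list, surface genes counted 9 higher and 3 lower of 18, transcription factors 4 and 2 of 13, and VEGF and angiopoietin genes 3 and 1 of 7. Notch genes counted 2 and 2 of 7, BMP and angiocrine genes 4 and 5 of 9, and genes of flow, clotting and activation 1 and 3 of 9. The surface list also holds Il1a, Fabp4 and Fcna, which are not surface proteins, and Il1a and Fabp4 are among its higher calls. Many of these genes are expressed outside endothelium, and the cell of origin was not measured.

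A few of these surrounding genes were called in the knockdown arms, at shares near or below those of the array. In shWDR5 4 of 63 were higher and 1 lower, against 4.69 and 6.17 percent of all genes: the arterial ligand Efnb2 rose by 1.0 ± 0.14, the chemokine Cxcl12 by 0.66 ± 0.09, the receptor Notch1 by 0.36 ± 0.06 and the Flt4 ligand Vegfc by 0.35 ± 0.08, and the hypoxia factor Epas1 fell, at -0.30 ± 0.08. In shKAT2B 3 were higher and 6 lower, against 6.66 and 8.95 percent of all genes: Notch1 rose by 0.68 ± 0.06 and the adhesion molecule Icam1 by 0.61 ± 0.14, while the Flt1 ligand Pgf (-0.60 ± 0.12), Cxcl12 (-0.49 ± 0.09), the fatty acid receptor Cd36 (-0.46 ± 0.11) and the Notch target Hes1 (-0.44 ± 0.11) fell. Jag2, Ets1 and Ets2 were the other calls. Set directly against shWDR5, the shKAT2B arm was lower for Cxcl12 (-1.14 ± 0.09), Hes1 (-0.82 ± 0.12), Efnb2 (-0.74 ± 0.15) and Vegfa (-0.55 ± 0.11) and higher for Icam1 (0.94 ± 0.15), among 4 higher and 10 lower calls (11.2 and 11.5 percent of all genes). All 5 shWDR5 calls and all 9 shKAT2B calls passed in the same direction with the letter as a block over 10 or 8 libraries. Of the 14 calls between the arms all passed with the block over 10, and all but Thsd1 (adjusted p = 0.0635) with the block over 8. These refits of the same libraries are no independent support, and they called more genes. With blocks over 10 and 8 libraries, 3064 and 2720 of 11480 genes were called in shWDR5, against 1246 without a block. In shKAT2B 3396 and 3128 were called, against 1792, and between the arms 4139 and 4507, against 2609. Without both lone PBS libraries and no block, 0 of the 5 shWDR5 calls passed (Efnb2 had an adjusted p of 0.0851 and Cxcl12 of 0.0961), 1 of the 9 shKAT2B calls, Notch1 (0.0212), and 5 of the 14 between the arms, Cxcl12, Efnb2, Hes1, Notch1 and Vegfa.

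Under glucagon 3 of 63 were called, against 0.923 percent of all genes. Edn1, the vasoconstrictor endothelin, stood between 9.60 and 9.72 in the 4 PBS libraries and between 7.95 and 9.04 in the 6 glucagon libraries, a fall of -1.21 ± 0.14 (adjusted p = 0.00467). Hes1 fell, at -0.59 ± 0.10 (adjusted p = 0.0243), and the ETS factor Ets2 rose by 0.32 ± 0.05 (adjusted p = 0.032). The PBS and glucagon ranges of Edn1 did not overlap. All 3 genes passed with the letter as a block over 10 or 8 libraries, Edn1 at -1.51 ± 0.15 with the latter, and 0 passed without both lone PBS libraries and no block (adjusted p of 0.0606 for Edn1, 0.572 for Hes1 and 0.433 for Ets2). The blocks over 10 and 8 libraries called 287 and 224 of 11480 genes, against 106 without a block, from the same libraries.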

How the data were processed

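Per the labels' protocols, total RNA was extracted with Trizol and a column kit from pools of 3 dishes and hybridised to Affymetrix Mouse Gene arrays. Values of 26913 features were deposited as linear intensity. Per the submitters' processing notes, Affymetrix Expression Console 1.1.1 was used. The sources used here do not say how it normalized the arrays. Of the features 17873 carried 1 gene symbol in the platform annotation, 1128 several and 7912 none, and 17815 of the first were matched by gene identifier to RefSeq with 0 symbols changed.

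Intensity plus a pseudocount of 1 was taken as log2, and genes in the lowest 30 percent of mean levels were dropped. limma 3.58.1 in R 4.3.3 (lmFit, eBayes with a trend, two-sided) was fitted on all 11480 genes with Benjamini-Hochberg adjustment at 0.05. An additive fit of arm and treatment on 10 libraries had 6 residual degrees of freedom, the fit of 6 groups 4, and the letter fit on 8 libraries (group plus letter) 3. A lone PBS library was taken to vary as much as the groups with replicates. The code was tested on simulated data.

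Same-lettered libraries of the 4 groups with both letters deviated together from their group means (correlation 0.721 to 0.844 over genes for 6 pairs of groups, genes not being independent), so the letters were taken to pair libraries. Members, marker lists and pathway lists were chosen with earlier results of these data known. Members given in full are those called in any comparison and the 3 highest and 3 lowest of each comparison, and pathway genes are called genes, up to 6 a comparison by size. Other settings were quantile normalization, median centring, other limits on low values, the mean of a gene's features, other pseudocounts, no trend, the letter as a block, library sets, and leaving out libraries. Tables were made in Python 3.11.15 with numpy 2.4.6 and pandas 2.3.3, and figures with matplotlib 3.10.9.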

Additional observations from a re-analysis of the deposited data

How the results depend on the processing

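Counts of endothelial markers called are given first, and shares of all genes for the blocks and the set term stand in the results above. With the letter as replicate block, the WDR5 count went from 0 to 7 over 10 libraries and 2 over 8, and to 6 with the library set term. The KAT2B count went from 2 to 12, 7 and 14 under these. It was 1 with the lowest 50 percent left out, where 1474 of 8200 genes were called. Without both lone PBS libraries (chosen after seeing the data) it was 0, where 155 of 11480 genes were called. It lay between 0 and 9 when 1 library was left out, where 598 to 2122 genes were called. The count for shKAT2B minus shWDR5 was 1 in place of 0 in several settings. These were quantile normalization, median centring, the mean of a gene's features, a pseudocount of 16 and no trend. It was 2 with either replicate block, 4 with the library set term, and between 0 and 2 when 1 library was left out (1 without shNS PBS A, 2 without shKAT2B glucagon A). Where it was 1, 2580 to 3038 of 11480 genes were called. With the blocks over 10 and 8 libraries and the set term, 4139, 4507 and 5788 genes were called. The glucagon interactions went from 0 to 5 (shWDR5) and 8 (shKAT2B) with the replicate block over 10 libraries, and could not be fitted without the lone PBS library of the arm. The letter count went from 24 to 7 with the lowest 50 percent left out, a setting with fewer members tested, where 4453 of 8200 genes were called. The number of members tested there is not given, so 24 and 7 cannot be compared as shares and do not show a loss of the difference. The letter count lay between 21 and 25 when 1 library was left out, where 4618 to 5760 of 11480 genes were called. The block changed no member call in the shared glucagon comparison.

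With the lowest 50 percent left out, sinusoidal medians were 0.14 (letter), 0.12 (WDR5) and 0.14 (KAT2B) and vascular medians 0.23 (WDR5) and 0.35 (KAT2B). The sinusoidal median thus lay below the vascular one in both knockdown comparisons, over fewer members. The members kept are those with the highest mean levels, led in the sinusoidal list by Lyve1, Gata4 and Flt4. The sinusoidal KAT2B median was 0.23 without members that leukocytes also express, close to the vascular median of 0.21. The vascular WDR5 median was 0.17 after median centring, 0.22 with the block over 10 libraries, 0.10 with the block over 8 or without both lone libraries, and 0.11 with the set term. Leaving out 1 library gave 0.21 to 0.41 and 0.25 to 0.63 for sinusoidal WDR5 and KAT2B medians, and 0.09 to 0.28 and 0.13 to 0.35 for vascular ones. The cause was not tested, except that the stricter limit tests fewer genes. No called result turned its direction. At most 2 libraries in a group and dim features (4 members below the limit) set the precision.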
